A study of Homo sapiens with 6 samples.

Results

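The 34 genes described here are ATF4, its partners and targets, and the genes of the unfolded protein response. They were listed by gene name, at a time when earlier results of these data were known, and each was read from 1 probe, the brightest of that gene over the 6 arrays. All 34 had a probe that could be tested, out of 20503 genes named on the array, of which 16601 could be tested. RNA came from A673, an Ewing sarcoma cell line, in which a tetracycline repressor (TR) keeps an inserted cDNA silent until doxycycline is given. The controls were 3 A673/TR/empty cultures, whose cells had been infected with the empty lentiviral vector, and the 3 A673/TR/LOX-PP cultures held a vector with the propeptide region of the secreted enzyme lysyl oxidase (LOX). The comparison asks which mRNA levels differed in A673 cells when this propeptide was expressed. The labels give doxycycline (1 uM) for 72 h on all 6 samples, whereas the study names it clearly only for the A673/TR/LOX-PP cells, so whether the control cultures received it was not settled, and if they did not, doxycycline and LOX-PP cannot be told apart. The study selected stable clones for high expression, so differences between clones and an effect of LOX-PP cannot be told apart either.

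ATF4 is a transcription factor whose mRNA is translated more when the initiation factor eIF2 is phosphorylated, as happens when amino acids run short or when unfolded proteins accumulate in the endoplasmic reticulum (ER). It switches on genes for amino acid uptake and synthesis, for redox balance and for ending the response. In the ER membrane 3 sensors, encoded by EIF2AK3 (PERK), ERN1 (IRE1) and ATF6, are held inactive by the chaperone BiP, the product of HSPA5. PERK phosphorylates eIF2, IRE1 splices the mRNA of the transcription factor XBP1, and ATF6 is cut to release a transcription factor of its own. XBP1 and ATF6 raise chaperones, folding enzymes and the machinery that sends misfolded proteins to degradation. Translation of ATF4, splicing of XBP1 and cleavage of ATF6 are not seen by an array that measures total mRNA.

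Levels are given as log2 signal over the 75th percentile of the array, so that 0 is a signal at that percentile, and they are not compared between probes. Differences are A673/TR/LOX-PP minus A673/TR/empty on the log2 scale, after the median difference of all 32647 tested probes (0.13) was subtracted. Their 95% intervals come from limma and cover 1 gene at a time. Adjusted p-values are from limma, by the Benjamini-Hochberg method over all tested probes, before that subtraction, and a gene is called at an adjusted p under 0.05. By this rule 5.66% of all tested probes were called, 3.31% higher and 2.36% lower in A673/TR/LOX-PP cells.

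Of the arrays, A673/TR/LOX-PP replicate 1 was on slide 2 and the other 5 on slide 1, and the share of gene spots flagged as above background ran from 56.9% to 74.8%. The probe for LOX read -0.09, 0.36 and 0.11 in A673/TR/empty cells, against -0.12, -0.68 and -1.29 where the label is A673/TR/LOX-PP, a difference of -0.95 (Benjamini-Hochberg adjusted p = 0.217 by limma). It was not higher with LOX-PP, and whether it lies within the inserted cDNA is not given in the sources used here, so the direction of every difference rests on the labels. All 10 Ewing sarcoma markers were above background on the 6 arrays. Of 20 markers of other cell types, 12 were above background on all arrays and 3 on none (TEK, CDH1 and KRT5), while KRT14, CLDN4 and FAP were called higher and LUM lower. The summed level of the 5 epithelial markers, in multiples of the 75th percentile, was 0.303 to 0.437 in control and 4.61 to 5.72 in A673/TR/LOX-PP cells. Most of that sum with LOX-PP was the probe of KRT14 (mean log2 level -3.10 in control cells and 2.16 with LOX-PP), while EPCAM was not called and CDH1 and KRT5 were at background. That of the 5 fibroblast markers was 5.67 to 6.56 and 7.73 to 10.9. Most of this sum was the probe of COL1A1 (mean log2 level 2.23 in control cells and 2.88 with LOX-PP), which was not called. The other fibroblast markers did not move together, with FAP higher, LUM lower, DCN lower but overlapping, and PDGFRA too dim to be tested. The part of these markers in the results below was not tested, and in RNA from whole cultures fewer cells of a type and less RNA per cell cannot be told apart.

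The promoters of these genes hold short elements through which the 2 branches are known to act. Windows from 250 bases before to 50 bases after the RefSeq start (GRCh38.p14) were at hand for 32 of the 34 genes, all but SLC7A11 and PDIA3, and both strands were searched. The C/EBP-ATF response element (TGATGNAA), to which ATF4 binds with a C/EBP partner, was in 5 of the 32 windows (15.6%), against 2.53% of 15843 promoters of protein-coding genes. The ER stress response element (CCAAT, then 9 free bases and CCACG), read by ATF6 and XBP1 with the factor NF-Y, was in 6 (18.8%) against 0.12%, and its shorter form II (ATTGG, then 1 free base and CCACG) in 3 (9.38%) against 0.0757%. The unfolded protein response element (TGACGTGG) was only in the HYOU1 window (3.12%), against 0.833% of all promoters, where it overlapped the first of 2 matches to form II. Since the genes were listed for belonging to this response, these shares describe the list. The stretches below are 5′ to 3′ in the direction of the gene, with the matched letters in capitals, and show the elements of genes whose values are taken up later.
HYOU1: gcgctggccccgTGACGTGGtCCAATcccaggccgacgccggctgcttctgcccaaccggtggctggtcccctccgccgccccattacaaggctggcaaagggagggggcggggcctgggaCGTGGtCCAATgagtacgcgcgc
HSPA5: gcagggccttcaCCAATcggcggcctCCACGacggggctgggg
CANX: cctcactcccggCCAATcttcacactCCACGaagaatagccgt
CALR: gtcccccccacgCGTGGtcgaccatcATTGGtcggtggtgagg
CRELD2: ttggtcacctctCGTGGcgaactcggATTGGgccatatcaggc
XBP1: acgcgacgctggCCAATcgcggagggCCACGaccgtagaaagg
ASNS: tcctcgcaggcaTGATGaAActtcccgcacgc
CHAC1: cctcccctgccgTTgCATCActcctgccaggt
ATF3: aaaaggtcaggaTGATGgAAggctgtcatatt
These lie upstream of the start at chr11:119057262-119057405 (minus strand) for HYOU1, chr9:125241379-125241421 (minus) for HSPA5, chr5:179698766-179698808 (plus) for CANX and chr19:12938372-12938414 (plus) for CALR. CRELD2 is at chr22:49918542-49918584 (plus), XBP1 at chr22:28800591-28800633 (minus), ASNS at chr7:97872457-97872488 (minus), CHAC1 at chr15:40953250-40953281 (plus) and ATF3 at chr1:212565204-212565235 (plus). Matches not shown were those of HSP90B1 and SDF2L1 (form I and form II), of HERPUD1, which held a C/EBP-ATF element and a form II, and of SLC3A2, whose C/EBP-ATF element lay after the start.

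Among the 34 genes 1 was called, HYOU1, which was lower in A673/TR/LOX-PP cells. This is 2.94% of the genes, against 5.66% of all tested probes and 7.07% of named genes. At an unadjusted p under 0.05, limma gave 4 genes (HYOU1, HSPA5, CANX and ERN1), where 21.3% of all tested probes passed. These p-values were taken before the median was subtracted. The 95% intervals after the subtraction also excluded 0 for SLC7A11, PDIA6 and CRELD2. The methods' t-test called 1 gene after adjustment and 4 without it, against 378 and 3853 of 16601 named genes. The values of the 3 arrays of each group did not overlap in 8 genes, 2 higher and 6 lower. Over all tested probes the groups did not overlap in 29.5%, with 16.1% higher and 13.4% lower. Among the 16601 named genes, read from 1 probe each, they did not overlap in 33.6%, with 2563 higher and 3017 lower. The median difference over the 34 genes was -0.33, against -0.09 over all named genes, and 25 of the 34 (73.5%) lay below the median of all probes against 56.5% of named genes. For a single gene the 95% interval reached 0.66 to either side in the median, and from 0.47 to 1.46 over the list, so that no difference under 0.47 could be told from 0 even without adjustment.

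**Figure D1:**
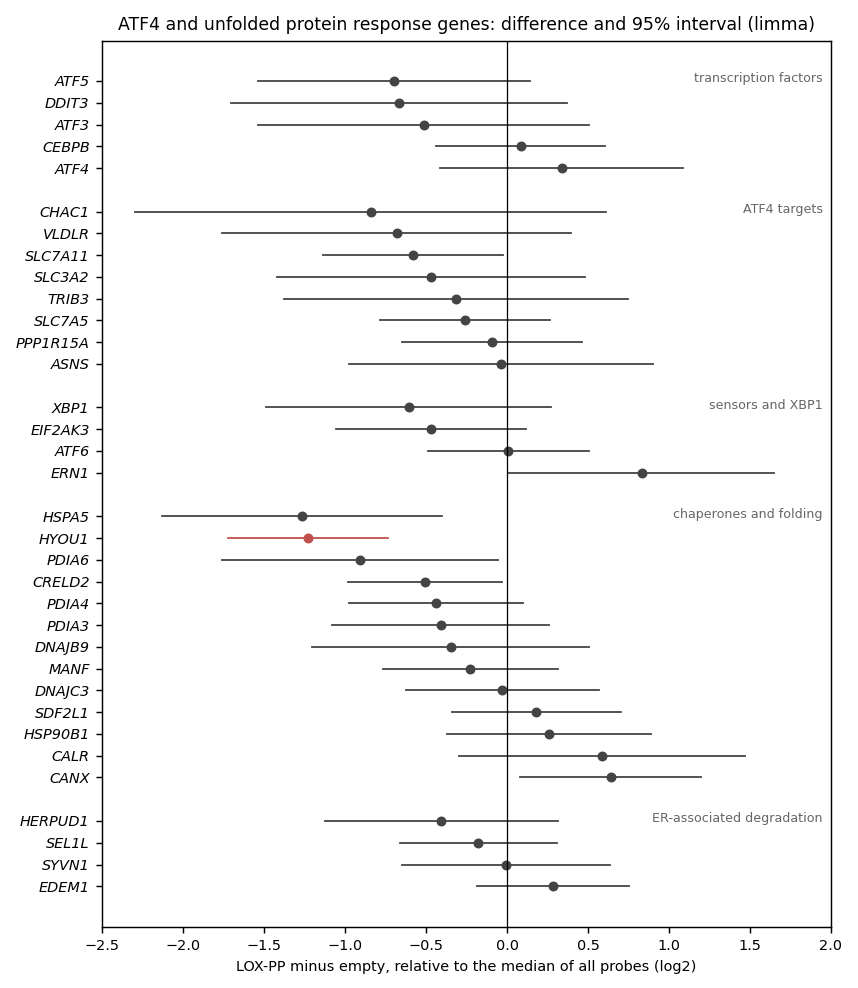
Difference of each of the 34 genes between A673/TR/LOX-PP and A673/TR/empty cells (log2, relative to the median of all tested probes), grouped by role; points are limma estimates from 3 arrays a group, bars their 95% intervals, and red marks the gene past the threshold. HYOU1 at -1.23 is the called gene, HSPA5 at -1.27 has a wider interval, and CANX at 0.64 lies on the other side of 0.

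The chaperones and folding enzymes of the ER lumen held the called gene. HYOU1 encodes a large chaperone of the HSP70 family that also exchanges the nucleotide of BiP. Its level was 1.34, 1.17 and 1.31 in control cells and 0.02, 0.12 and 0.37 with LOX-PP. All 3 A673/TR/LOX-PP arrays were below all 3 control arrays, with 0.80 between the nearest values. The difference was -1.23 (95% interval -1.72 to -0.73, SE 0.21, adjusted p = 0.0311 in limma, Benjamini-Hochberg), which is 0.427 times the control level relative to the median probe. Within slide 1 it was -1.19 (adjusted p = 0.0420 in the same kind of limma fit), and it kept its call in 10 of 17 other settings. Among these settings, slide as a block and leaving out A673/TR/LOX-PP replicate 1 are the same fit. The authors' table and scaling by the median of probes well above background nearly repeat the main fit (adjusted p = 0.0310 and 0.0316 in limma), so the 10 are not independent. The call was lost when 1 array was left out, with adjusted p-values by limma of 0.182, 0.130 and 0.0893 without control replicates 1, 2 and 3 and of 0.0858 and 0.0530 without A673/TR/LOX-PP replicates 2 and 3, while the difference stayed between -1.33 and -1.12 over all the arrays left out in turn.

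HSPA5, on chromosome 9, encodes BiP, the chaperone that holds the 3 sensors inactive. Its level was 3.32, 3.67 and 3.31 in control cells and 2.44, 2.89 and 1.55 with LOX-PP. The groups did not overlap, and the A673/TR/LOX-PP arrays were spread more widely (SD 0.68 against 0.20, n = 3 each). The difference of -1.27 (95% interval -2.13 to -0.40) was as large as that of HYOU1 but did not pass the threshold (adjusted p = 0.132 in limma, Benjamini-Hochberg), nor did it in any of 17 other settings, where the adjusted p ranged from 0.0909 to 0.397 and the difference from -1.49 to -0.90.

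PDIA6, a protein disulfide isomerase, read 4.0, 4.25 and 4.19 in control cells and 2.57, 3.78 and 3.74 with LOX-PP. The groups did not overlap, and replicate 1 was far below the other A673/TR/LOX-PP arrays. Its difference was -0.91 (95% interval -1.76 to -0.06, adjusted p = 0.267 in limma, Benjamini-Hochberg) and became -0.55 without that replicate. CRELD2, a secreted protein induced by ER stress, was also apart, at 4.17 to 4.40 in control cells and 3.78 to 3.98 with LOX-PP, with a difference of -0.51 (Benjamini-Hochberg adjusted p = 0.328 by limma).

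CANX, the membrane-bound lectin calnexin that holds glycoproteins during folding, was the chaperone whose values stood apart upwards. It read 1.45, 1.68 and 1.64 in control cells and 2.70, 2.15 and 2.23 with LOX-PP, a difference of 0.64 (95% interval 0.08 to 1.20, adjusted p = 0.121 in limma, Benjamini-Hochberg). A second CANX probe went the other way, at 0.87, 0.77 and 0.73 in control cells and -0.49, 0.51 and 0.04 with LOX-PP, with a difference of -0.90 (Benjamini-Hochberg adjusted p = 0.188 by limma). The groups were apart on each probe, in opposite directions, so no direction can be given for the gene. The soluble relative calreticulin, CALR, differed by 0.59, with overlapping groups, and by 0.23 under quantile normalization and 0.20 without A673/TR/LOX-PP replicate 1.

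**Figure D2:**
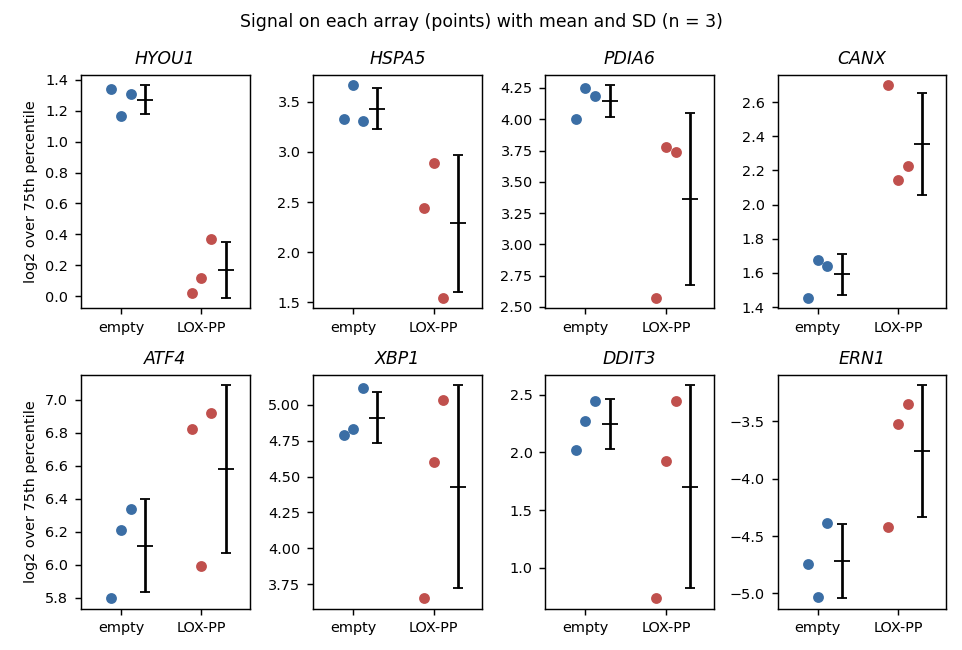
Log2 signal over the 75th percentile of the array for 8 of the genes, 1 point per array, with mean and SD (n = 3) beside each group. HYOU1, HSPA5 and PDIA6 are lower on every A673/TR/LOX-PP array and CANX higher, whereas ATF4, XBP1, DDIT3 and ERN1 overlap between the groups; each panel has its own axis, which does not start at 0.

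The other chaperones and folding factors did not separate. SDF2L1, a BiP co-factor, and HSP90B1, the chaperone GRP94, differed by 0.18 and 0.26. The disulfide isomerases PDIA3 and PDIA4 differed by -0.41 and -0.44, the BiP co-chaperones DNAJB9 and DNAJC3 by -0.35 and -0.03, and the secreted ER stress protein MANF by -0.23. Without A673/TR/LOX-PP replicate 1, DNAJB9 went to -0.02, SDF2L1 to 0.06, HSP90B1 to 0.03 and PDIA3 to -0.71. DNAJC3 lies on chromosome 13, whose 285 tested genes had a median difference of -0.82. For PDIA3 a dimmer probe stood apart, at 0.20 to 0.48 in control cells and -0.83 to -0.40 with LOX-PP, with a difference of -1.0 (Benjamini-Hochberg adjusted p = 0.0761 by limma), and the second probe of HSP90B1 differed by -0.19. Over the 13 chaperones and folding genes the median was -0.35, with 9 below and 4 above the median of all probes, 1 called lower and none higher by limma.

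Of the 9 genes whose windows hold an ER stress response element of either form, HYOU1 was called and the other 8 were not. On their brightest probes 4 lay above and 5 below the median of all probes, with a median of -0.41. No direction is read from these signs, since the probes of CANX disagreed and HSP90B1 turned to -0.15 under quantile normalization.

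Of the sensors, ATF6 varied least between the groups. Its level was 2.79, 2.61 and 2.98 in control cells and 2.84, 2.94 and 3.01 with LOX-PP, a difference of 0.01 (95% interval -0.49 to 0.50). EIF2AK3 read -2.73, -2.17 and -2.82 against -3.03, -2.86 and -2.87, a difference of -0.47. Its groups were apart by only 0.04 (Benjamini-Hochberg adjusted p = 0.472 by limma).

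ERN1 gave a dim signal, among the dimmest 10% of tested named genes, and was well above background on 2 of the 3 control arrays. It read -4.74, -5.03 and -4.39 in control cells and -4.42, -3.52 and -3.35 with LOX-PP. A673/TR/LOX-PP replicate 1 fell among the control values and the other 2 above them. The difference was 0.83 (95% interval 0.01 to 1.65, adjusted p = 0.173 in limma, Benjamini-Hochberg), and within slide 1, that is without A673/TR/LOX-PP replicate 1, it was 1.12 and was called higher (Benjamini-Hochberg adjusted p = 0.0442 by limma). The difference was smaller under other settings, at 0.57 under quantile normalization, 0.48 under normexp and 0.11 with a common floor of -3.70, under which all 3 control values lie. The normexp setting was quantile normalized too. All named genes of that 10% had a median of 0.27.

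XBP1, the transcription factor downstream of IRE1, read 4.79, 4.83 and 5.12 in control cells and 3.65, 4.60 and 5.03 with LOX-PP. The groups overlapped, and the difference of -0.61 (95% interval -1.49 to 0.27) became -0.26 without A673/TR/LOX-PP replicate 1. The median of the 3 sensors and XBP1 was -0.23, and limma called none of them, with 1 (ERN1) at an unadjusted p under 0.05 and none by the methods' t-test.

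ATF4 itself had a bright signal that overlapped between the groups. It read 5.80, 6.21 and 6.34 in control cells and 6.82, 5.99 and 6.92 with LOX-PP. The difference was 0.34 (95% interval -0.42 to 1.09, adjusted p = 0.452 in limma, Benjamini-Hochberg) and turned to -0.10 under quantile normalization, and it ranged from 0.16 without A673/TR/LOX-PP replicate 3 to 0.71 without replicate 2. DDIT3, which encodes the factor CHOP and is induced by ATF4, read 2.02, 2.28 and 2.44 in control cells and 0.74, 1.93 and 2.45 with LOX-PP. Its highest A673/TR/LOX-PP value matched the highest control value, and the lowest, on replicate 1, was far below the rest, so that the difference of -0.67 (95% interval -1.71 to 0.37) was within the spread of the arrays. The related factors ATF3 and ATF5 differed by -0.52 and -0.70, and CEBPB, which pairs with ATF4 on its response element, by 0.08. Without A673/TR/LOX-PP replicate 1, DDIT3 went to -0.22 and ATF3 to -0.17, while ATF5 stayed at -0.70. Limma called none of these 5 factors, and none had an unadjusted p under 0.05 by limma or by the methods' t-test.

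The 8 ATF4 targets all lay below the median of all probes, with a median of -0.39. Before the median of all probes was subtracted, ASNS (0.09) and PPP1R15A (0.03) were slightly higher with LOX-PP. Limma called none of the 8, and none had an unadjusted p under 0.05 by limma or by the methods' t-test. Asparagine synthetase, ASNS, differed by -0.04 and changed sign with the choice of filter and floor. CHAC1, which degrades glutathione, had the largest difference (-0.84) and the widest interval (-2.30 to 0.61). It read 3.17, 2.93 and 4.32 in control cells and 1.88, 2.39 and 4.0 with LOX-PP, so each group spread over more than 1 unit. The cystine transporter SLC7A11 was the target whose groups were apart, at 2.83 to 3.23 in control cells and 2.27 to 2.70 with LOX-PP, a difference of -0.58 (Benjamini-Hochberg adjusted p = 0.314 by limma). The large neutral amino acid transporter SLC7A5 and the heavy chain SLC3A2, with which both transporters pair, differed by -0.26 and -0.47. TRIB3, an inhibitor of AKT and of ATF4, differed by -0.31, and the lipoprotein receptor VLDLR by -0.68 on its brighter probe and by 0.68 on a dimmer one that was above background on 2 arrays of each group. PPP1R15A (GADD34), which directs the removal of phosphate from eIF2, differed by -0.09 and changed sign under quantile normalization. Several of these differences rested on A673/TR/LOX-PP replicate 1. Without it SLC3A2 went to -0.06, TRIB3 to -0.05, CHAC1 to -0.44 and VLDLR to -0.27, whereas SLC7A5 went to -0.43. The 5 genes with a C/EBP-ATF response element in their window (ASNS, CHAC1, ATF3, SLC3A2 and HERPUD1) had a median of -0.47, and limma called none of them. Of the A673/TR/LOX-PP arrays, replicate 1 was the lowest for 4 of these 5, against 49.8% of named genes. Without it CHAC1 was -0.44, ATF3 -0.17, HERPUD1 -0.16, SLC3A2 -0.06 and ASNS 0.05, so no direction is read from this median.

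Spread between cultures of the same group was wider in the ATF4 branch than among the chaperones. The median SD within groups was 0.48 for the 5 factors and 0.57 for the 8 targets, against 0.27 for the chaperones and folding genes and 0.32 for all named genes. Of the 13 factors and targets 10 were highest on replicate 3 in both groups, against 1 of the 13 chaperones and folding genes and 19.9% of all named genes. The same held for 3 of 4 genes among the sensors and XBP1, so it was not particular to the ATF4 branch. Of the 20 cytosolic aminoacyl-tRNA synthetases read below, 12 were also highest on replicate 3 in both groups. The median level of the 13 factors and targets was 3.45, 3.47 and 4.22 in control cells and 2.94, 2.58 and 4.0 with LOX-PP. Whether the replicate numbers pair the arrays was not settled, this pattern was seen only after the values were known, and it was not tested.

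**Figure D3:**
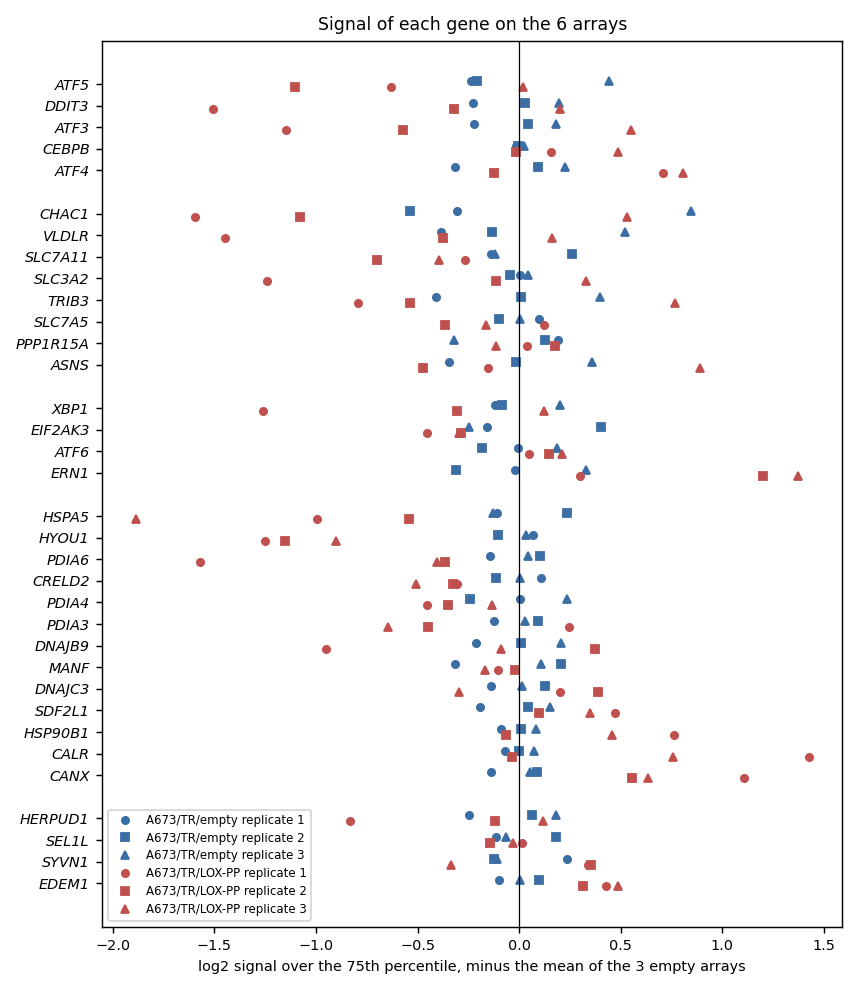
Log2 signal of each of the 34 genes on the 6 arrays, minus the mean of the 3 A673/TR/empty arrays; colour marks the group and shape the replicate. In the ATF4 branch (the upper 2 blocks) the triangles of replicate 3 are mostly the highest of their group, whereas among the chaperones the A673/TR/LOX-PP values of HYOU1 and HSPA5 lie below all control values.

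The genes of ER-associated degradation had a median of -0.09, and limma called none of the 4, none at an unadjusted p under 0.05 (the methods' t-test gave 1 without adjustment and none with it). EDEM1, which extracts misfolded glycoproteins from the folding cycle, was apart and higher, at -1.90 to -1.71 in control cells and -1.49 to -1.32 with LOX-PP, a difference of 0.28 (Benjamini-Hochberg adjusted p = 0.286 by limma). HERPUD1, an organiser of the ligase complex, differed by -0.41, and by -0.16 without A673/TR/LOX-PP replicate 1. The ubiquitin ligase SYVN1 (HRD1) and its partner SEL1L differed by -0.01 and -0.18. The second probe of SEL1L differed by -0.01, and its dimmest probe was above background on 2 control arrays and 1 A673/TR/LOX-PP array, where it was lower by the fit (-1.55, Benjamini-Hochberg adjusted p = 0.153 by limma) but not well measured.

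Over all 34 genes the median deviation from each gene's mean was -0.05, 0.09 and 0.16 in control cells and -0.15, -0.11 and 0.22 with LOX-PP. The groups overlapped, and replicate 3 of A673/TR/LOX-PP was the highest of the 6 arrays. Without A673/TR/LOX-PP replicate 1 the median difference of the list went from -0.33 to -0.17.

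Differences moved with signal level across all genes, and most of the 34 genes are bright. With the tested named genes cut into 10 equal bins by mean signal, 12 of the 34 were in the brightest bin, whose median difference was -0.02, and 18 in the 4 bins next to it, whose medians were between -0.28 and -0.25. Under quantile normalization the medians of all bins were between -0.03 and 0.01, and the median over the 34 genes was -0.18. HYOU1, in a bin with a median of -0.25, kept a difference of -1.02 under that normalization (Benjamini-Hochberg adjusted p = 0.0277 by limma), and HSPA5 one of -0.99.

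**Figure D4:**
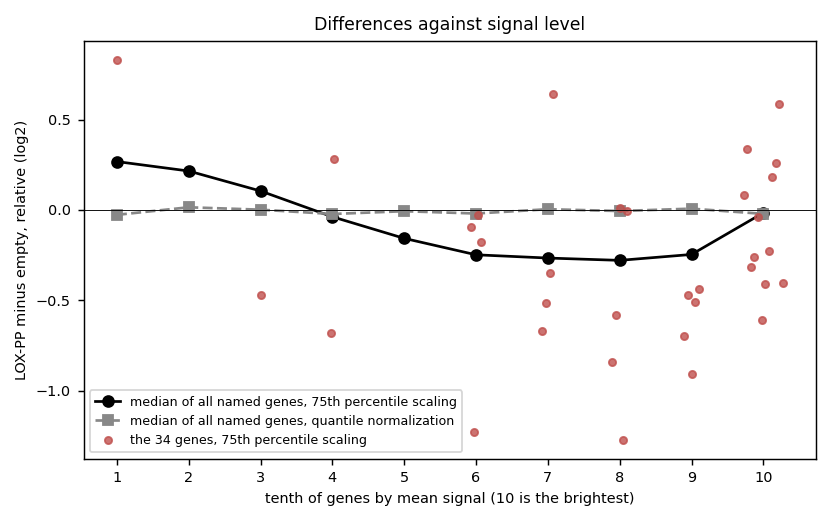
Difference between A673/TR/LOX-PP and A673/TR/empty cells (log2, relative to the median of all tested probes) against 10 equal bins of tested named genes by mean signal; black circles and grey squares are medians of all named genes in each bin under the 75th percentile scaling and under quantile normalization, red points the 34 genes. The medians run from 0.27 in the dimmest bin to -0.28 in the third brightest under the first and stay within 0.03 of 0 under the second, and HYOU1 and HSPA5 lie below -1.

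Another 141 genes around the response, in 11 lists, were read in the same way, 140 of them with a tested probe (EIF2S3 was not analysed here). Of these 2 were called, 1.43% against 7.07% of named genes. At an unadjusted p under 0.05 by limma there were 19, against 3930 of 16601 named genes. SLC7A1, a transporter of arginine and lysine, was lower. It read 2.65, 2.58 and 2.54 in control cells and 1.06, 1.10 and 1.85 with LOX-PP, a difference of -1.38 (95% interval -2.02 to -0.73, adjusted p = 0.0472 in limma, Benjamini-Hochberg). It lies on chromosome 13, whose median was given above (-0.82). OSGIN1, an NRF2 target that restrains growth under oxidative stress, was higher, at -2.66, -2.63 and -1.92 in control cells and -0.78, -0.73 and -1.20 with LOX-PP, a difference of 1.37 (95% interval 0.69 to 2.05, adjusted p = 0.0316 in limma, Benjamini-Hochberg). The groups did not overlap in either gene, but the count fell from 2 to 0 without control replicate 1 or 2 or A673/TR/LOX-PP replicate 2, and to 1 without control replicate 3.

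The 11 serine, proline and one-carbon enzymes, many of them known ATF4 targets, had the lowest median of these lists (-0.57, 10 of 11 below the median of all probes) with none called by limma (1 at an unadjusted p under 0.05, none by the methods' t-test after adjustment). All 11 were highest on replicate 3 in both groups, as most of the ATF4 branch was. Of the A673/TR/LOX-PP arrays, replicate 1 was the lowest for 7 of the 11 and for 12 of the 15 amino acid transporters and stress-induced regulators. This compares with 42.9% of the 140 genes and 49.8% of named genes. List medians without that array are not given here. The other ER folding and glycan enzymes had a median of -0.42, the amino acid transporters and stress-induced regulators -0.31, the subunits and kinases of eIF2 -0.29, and the cytosolic aminoacyl-tRNA synthetases -0.17. Medians were nearer to 0 for the cytosolic heat shock genes (-0.14), the other genes of ER-associated degradation (-0.03) and ER translocation (-0.01), and above it for the NRF2 targets (0.11), ATF6 processing (0.13) and the mitochondrial chaperones (0.24).

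**Figure D5:**
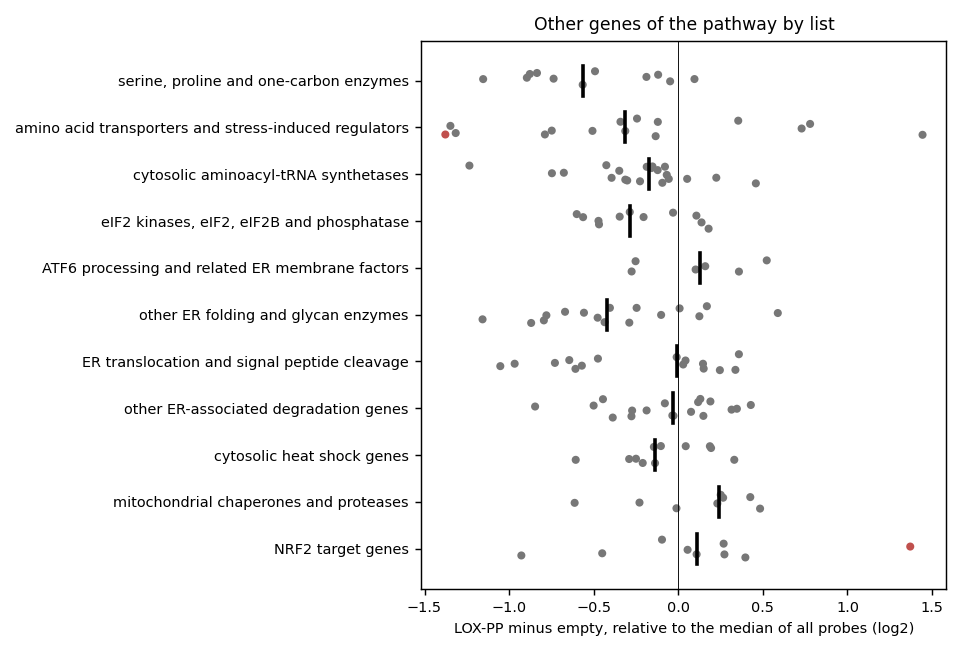
Difference between A673/TR/LOX-PP and A673/TR/empty cells (log2, relative to the median of all tested probes) of 140 other genes of the pathway by list; points are genes, black bars list medians and red points the 2 genes past the threshold. The lowest median is that of the serine, proline and one-carbon enzymes (-0.57), SLC7A1 is the red point on the left and OSGIN1 the one on the right.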

How the data were processed

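Gene expression was measured on 6 one-colour Agilent arrays. The authors deposited each spot's intensity from Feature Extraction 10.7, corrected for background by that software, and processed log2 values. Without control and outlier spots, repeat spots were averaged on the log2 scale and each array was scaled by its 75th percentile, after which 50537 of 50599 probes lay within 0.02 log2 of the authors' table once each probe was centred. A RefSeq table named 28174 probes. For 32647 probes, those flagged as well above background on 3 or more arrays, differences were tested with limma 3.58.1 in R 4.3.3, with no block. The number of arrays limits the precision, and the study's methods describe the replicates as separate experiments. The genes and lists were chosen with earlier results of these data known. Every gene of the main list is named, with values per array for the regulators, for HSPA5, for called genes and for groups over 0.5 log2 apart, and genes of the 11 further lists where they were called. Values per array are also given for PDIA6, CANX and CHAC1, chosen after their values were seen. Alternatives were other normalizations, filters and floors, normexp (offset 50) on the median spot signal in place of the mean, which the files used here do not hold, the authors' table, slide and replicate blocks, the methods' t-test, averaging the probes of a gene, and each array left out. After normexp the arrays were also quantile normalized. The limma fit alone was run on simulated data with independent noise for each probe. The simulation held no effect of array, slide or signal level, so it does not cover the scaling, the filter or the alternatives.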

Additional observations from a re-analysis of the deposited data

How the results depend on the processing

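Of 577 differences of the 34 genes over the other settings, 533 kept their direction and their side of the threshold, 7 lost a call (HYOU1), 2 gained one (ERN1, within slide 1 and without A673/TR/LOX-PP replicate 1) and 35 changed sign, all of genes that were never called. Slide as a block and leaving out A673/TR/LOX-PP replicate 1 are the same fit, counted here as 2 settings. Scaling by a median, the authors' table, the methods' t-test and the replicate block left the differences almost unchanged. ATF4, for example, was 0.34 in the main fit and in each of them. They are counted among the 577 but test the calls, not the direction. The causes of the changes were not tested. The count of called genes went from 1 to 0 with no filter on dim probes and with a replicate block, to 2 with slide as a block, and ranged from 0 to 2 with 1 array left out. The median over the list went from -0.33 to -0.51 with no filter and to -0.17 with slide as a block, and ranged from -0.43 to -0.17 with 1 array left out. For all probes the count went from 1849 to 860 with a replicate block, 516 without the filter and 566 by the methods' t-test, and ranged from 407 to 2062 with 1 array left out. For the 140 other genes it went from 2 to 1 under quantile normalization and by the methods' t-test, 5 under normexp, 4 with a common floor, and 0 both without the filter and with the replicate block, and ranged from 0 to 3 with 1 array left out. By the t-test neither SLC7A1 nor OSGIN1 was called, and the 1 called gene was of the ATF6 processing list.

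HYOU1 had an adjusted p by limma of 0.124 with no filter and 0.0973 with the replicate block. Whether the replicate numbers pair the arrays was not settled. Correlations between arrays of the same number were 0.27, -0.39 and 0.23, and with so few arrays a group they cannot decide it. The block took the call of HYOU1 and changed no other call among the 34 genes.

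Signs turned as follows. Under quantile normalization and normexp, ATF4 was -0.10 and -0.12, PPP1R15A 0.14 and 0.16, HSP90B1 -0.15 and -0.12, DNAJC3 0.22 and 0.24, SEL1L 0.065 and 0.033, and SYVN1 0.26 and 0.27. Both settings share the quantile step, so they are not separate checks of these signs. With no filter CEBPB was -0.092 and ATF6 -0.17. With probes above background on all 6 arrays and with a common floor, ASNS was 0.019 and 0.027, DNAJC3 0.028 and 0.036, and SYVN1 0.050 and 0.058. ASNS was 0.046 with slide as a block, and CANX -0.13 as the mean of its probes. With 1 array left out, signs turned within the ranges -0.32 to 0.033 for PPP1R15A, -0.44 to 0.32 for ASNS, -0.12 to 0.17 for DNAJC3, -0.15 to 0.22 for SYVN1, -0.030 to 0.081 for ATF6 and -0.055 to 0.27 for CEBPB.

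The median difference of all probes, 0.13, was -0.03 under quantile normalization, and 0.30 over the larger set of probes with no filter. Signal over background limits dim genes, of which ERN1 was the dimmest of the 34.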
